A study of Mus musculus with 4 samples.

Results

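The genes described are 36 genes of DNA replication and S phase, taken from a list of symbols and matched exactly to the gene symbols that the authors' table gives for the array's probe sets. All 36 were found among the 29432 genes tested. Each gene was read from 1 probe set, which for Dut, the only one with another probe set of its own, was that with the highest mean over all arrays. They were measured in whole liver of C57BL/6 mice aged 8 weeks, untreated and killed around midday, on 4 Affymetrix MoGene 2.0 ST arrays. The FF group, whose genotype is labelled as control, had 2 biological replicates, and the KO group, labelled Gdown1 KO, also had 2. The header of the authors' table names the compared sides Alb-cre and f/f, and Cre driven by the albumin promoter acts in hepatocytes, so other liver cells may keep the gene. Animals carrying Cre without the deletion were not among the groups, and effects of Cre and of the deletion cannot be told apart. The labels do not give the sex of the animals.

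Before a cell copies its DNA, the origin recognition complex, Cdc6 and Cdt1 load the MCM helicase onto origins. Cdc45 and the GINS proteins then turn it into a moving helicase, and polymerases follow with the Pcna clamp, which the replication factor C complex loads. Transcription of most of these genes is driven by E2F factors once cyclin D and cyclin E kinases have inactivated the RB proteins. The p53 target Cdkn1a inhibits those kinases, and its protein also binds Pcna. Hepatocytes of an adult mouse rarely divide, so few cells of this tissue are in S phase at a given time.

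Polr2m, the gene that encodes Gdown1, read 7.35 and 7.38 in the FF animals and 6.35 and 6.18 in the KO animals, in log2 units as all signals below. Across probe sets, which are not independent, the FF arrays correlated at a Pearson's r of 0.984 and the KO arrays at 0.986, and arrays of different groups at 0.972 to 0.976. As a guide to background, 95% of 1127 olfactory receptor genes had a mean signal below 2.82. With 2 arrays a group, which the titles number as biological replicates, precision is limited throughout. In whole tissue, fewer cells of a type and less RNA per cell cannot be told apart.

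Of the replication genes Tk1 fell in the knockout, and no other passed the test. The next largest differences, KO minus FF in log2 units, were 0.66 for Pcna, 0.53 for Mcm5, 0.46 for Mcm6, -0.39 for Pola1 and 0.36 for Orc6, and their 95% intervals excluded 0. Of the 36 genes 0 rose and 1 fell at an adjusted p under 0.05 from limma, a linear model with variances shared across genes, against 1.77% of all genes tested, or 0.996% higher and 0.778% lower. At an unadjusted limma p under 0.05 there were 6 of them, or 16.7%, against 17% of all genes. Of these, 4 were higher in KO (9.38% of all genes) and 2 lower (7.6% of all genes). The median difference, KO minus FF, was 0.05 over the 36 genes and -0.02 over all genes tested, on the log2 scale. The middle 50% of the 36 differences lay between -0.05 and 0.17. Against the FF mean, the median of the 36 genes was 0.07 on KO replicate 1 and 0.02 on KO replicate 2. The 95% intervals of 34 of the 36 differences lay within 1 log2 unit of 0, the exceptions being Tk1 and Pcna. For those 34 genes a 2-fold change of array signal in either direction lay outside the interval. Of them, 9 had a mean signal under the background guide, where the interval does not bound the change in transcript amount.

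The mean signal of 9 of the 36 genes, or 25%, lay under the background guide of 2.82, and 7 of them lay under it on all 4 arrays. Over all genes tested, 48.2% had a mean under the guide. Signals of different probe sets depend on their sequences and do not rank transcripts by amount. For genes near the guide a change of a low transcript amount would be compressed, and the small differences printed for them carry that limit.

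**Figure D1:**
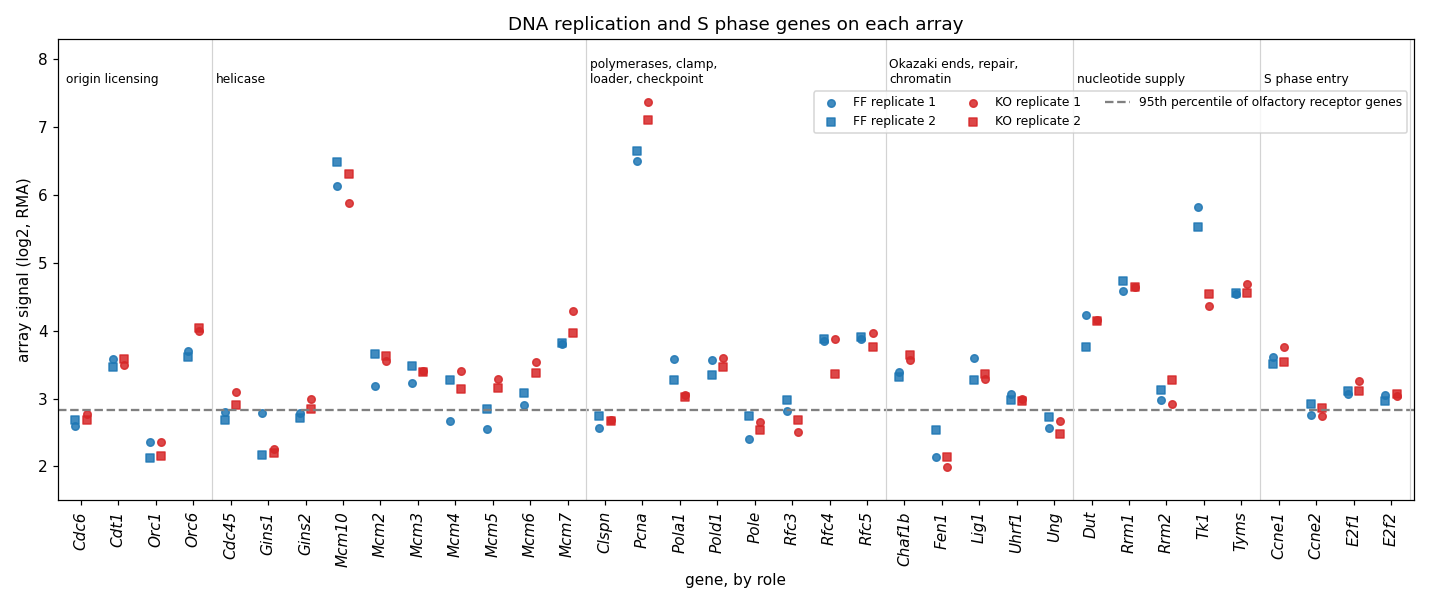
Array signal (log2, RMA values) of each of the 36 genes on the FF arrays (blue) and KO arrays (red), circles for replicate 1 and squares for replicate 2, grouped by role. The dashed line at 2.82 is the 95th percentile of olfactory receptor genes. Most points lie within 1.5 units of the line, and only Tk1 shows KO points more than 1 unit away from its FF mean.

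Tk1 encodes the cytosolic thymidine kinase, which salvages thymidine for DNA synthesis and in cultured cells rises in S phase. Its signal was 5.82 and 5.52 in the FF animals and 4.36 and 4.54 in the KO animals. Both KO arrays lay about 1 unit or more below both FF arrays, and all 4 lay above the background guide. The log2 signal fell by 1.22 ± 0.15 (SE, n = 2 a group), with a 95% interval from -1.59 to -0.85 and a limma adjusted p of 0.0277. The authors' deposited table gave Tk1 a signed fold change of -2.36. The averages in that table are not the means of the signals used here, for Tyms in FF 6.22 against 4.55. How they were made is not stated, so its fold changes may rest on another scale. With any 1 of the 4 arrays left out, the difference lay between -1.37 and -1.07. Such fits leave 1 array in a group, and the loss of the call in them is not particular to Tk1. The call was also not made when all probe sets were tested (limma adjusted p = 0.0957).

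Tk1 lies on chromosome 11 from 117815519 to 117826087 (GRCm38.p6), and its first 585 bases overlap those of Afmid, which runs the opposite way from 117825503 to 117839908. Afmid encodes kynurenine formamidase, a liver enzyme of tryptophan breakdown with no role in replication. The annotated starts of the promoter table lie 95 bases apart. Afmid read 8.11 and 7.57 in the FF animals and 6.50 and 6.44 in the KO animals, and its groups did not overlap either. It fell by 1.37 ± 0.19 (SE), limma adjusted p = 0.0365, and the authors' deposited table gave it a signed fold change of -3.09. The positions of the probes were not used here, and whether the Tk1 and Afmid probe sets share transcripts was not tested. Afmid was the only called gene among the 24 measured neighbours that overlap 1 of the 36 genes or lie within 1000 bases of it. Over all genes tested 1.77% were called. Of the 24 neighbours 6, Afmid among them, had an unadjusted limma p under 0.05, against 17% of all genes. The median difference of those 24 neighbours was 0.02, and they were looked up after the Tk1 value had been seen.

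The other enzymes of nucleotide supply did not pass the test. Tyms, the thymidylate synthase that makes the same nucleotide from deoxyuridine monophosphate, lay at 4.55 and 4.56 in FF and at 4.69 and 4.55 in KO. Its difference was 0.07 with a 95% interval from -0.23 to 0.36. The authors' deposited table gave Tyms a signed fold change of -1.33, of the opposite sign. Rrm1, the large subunit of ribonucleotide reductase, lay at 4.59 and 4.74 in FF and at 4.65 on both KO arrays. The small subunit gene Rrm2, which cycling cells induce, lay between 2.91 and 3.28 on all 4 arrays. Its signed fold change in the authors' deposited table was 1.46. Dut, which removes dUTP, had a difference of 0.15 with an interval from -0.29 to 0.59. Its FF arrays, at 4.23 and 3.76, enclosed both KO arrays, at 4.16 and 4.14. Thus among the 5 genes of this role only Tk1 had groups that did not overlap, against 46.6% of all genes tested.

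Pcna, the sliding clamp that holds polymerases on DNA, had the largest positive difference of the list. It lay at 6.51 and 6.64 on the FF arrays and at 7.37 and 7.10 on the KO arrays. Both KO arrays lay above both FF arrays. The difference, 0.66 ± 0.14 (SE), did not pass (limma adjusted p = 0.0960, 95% interval from 0.31 to 1.01). The authors' deposited table gave a signed fold change of 1.84. Pcna is also a known p53 target, besides being an E2F target.

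None of the subunits of the MCM2-7 helicase ring passed the test. Their 6 differences, all positive in these values, ran from 0.05 to 0.53 with a median of 0.31, and the lowest limma adjusted p was 0.157. Mcm5 lay at 2.55 and 2.84 in FF and at 3.29 and 3.15 in KO, a difference of 0.53 ± 0.15 (SE). Mcm6 lay at 2.90 and 3.08 in FF and at 3.53 and 3.37 in KO, a difference of 0.46 ± 0.13 with a limma adjusted p of 0.162. Mcm7, at 3.80 and 3.82 in FF and 4.29 and 3.97 in KO, was the other ring subunit whose groups did not overlap. For Mcm2, Mcm3 and Mcm4 at least 1 KO array lay below the higher FF array, and the intervals include 0. Without FF replicate 1 the differences of Mcm2, Mcm3 and Mcm4 were -0.07, -0.08 and -0.0083. The authors' deposited table gave Mcm7 a signed fold change of -1.06. Another 2 probe sets carry the name of a miRNA within the gene besides that of Mcm7. The set with Mir25 lay between 3.18 and 3.57 and had a difference of -0.16. The set with Mir93 lay between 1.82 and 1.99, under the background guide, and had a difference of 0.03.

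Partners of the ring showed no common direction. Cdc45, which joins the ring to form the active helicase, lay at 2.81 and 2.68 in FF and 3.09 and 2.899 in KO. Its difference of 0.25 had a 95% interval from -0.07 to 0.58. Gins2 had a difference of 0.17 and Gins1, another subunit of GINS, of -0.25. Gins1 lay at 2.78 and 2.17 in FF and at 2.26 and 2.20 in KO, all under the background guide. Mcm10, a replication factor that is not part of the ring, lay at 6.14 and 6.49 in FF and at 5.88 and 6.31 in KO. The Mcm10 groups overlapped, and its difference of -0.22 had an interval from -0.70 to 0.27. The authors' deposited table gave Mcm10 a signed fold change of -1.55.

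The origin licensing genes had 4 positive differences of 4 by mean, from 0.01 to 0.36. Orc6, a subunit of the origin recognition complex, lay at 3.70 and 3.61 in FF and at 3.996 and 4.04 in KO. That difference of 0.36 ± 0.12 (SE) was larger than the gap within either group, but its limma adjusted p was 0.197. Orc1, the subunit that varies over the cell cycle, stayed under the guide at 2.36 and 2.13 in FF and 2.35 and 2.16 in KO. Cdt1, the loading factor that is destroyed in S phase, had a difference of 0.01 with an interval from -0.29 to 0.31. Cdc6, its partner in loading, had one of 0.09 and signals between 2.60 and 2.77, all under the guide.

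Of the 8 genes for polymerases, the clamp, its loader and the checkpoint mediator Clspn, 4 had positive differences, Pcna among them, and 4 negative, with a median of -0.0035. Pola1, the catalytic subunit of the polymerase that starts each new strand, lay at 3.59 and 3.27 in FF and at 3.05 and 3.02 in KO. Its groups did not overlap, and the difference of -0.39 ± 0.15 (SE) had a limma adjusted p of 0.255. Pold1 and Pole, the catalytic subunits of the polymerases of the lagging and leading strand, had differences of 0.07 and 0.02. Pole lay at 2.41 and 2.74 in FF and at 2.65 and 2.54 in KO, all under the guide. Of the clamp loader, Rfc3 lay at 2.81 and 2.98 in FF and 2.50 and 2.69 in KO, a difference of -0.30 that did not pass. For Rfc4 the KO arrays disagreed. It lay at 3.85 and 3.88 in FF, at 3.87 on KO replicate 1 and at 3.36 on KO replicate 2. Without KO replicate 2 its difference was 0.0068, and the authors' deposited table gave it a signed fold change of 1.23. Rfc5 had a difference of -0.02, and Clspn of 0.02.

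Of the 5 genes for maturation, repair and chromatin, only Chaf1b had groups that did not overlap, against 46.6% of all genes tested. This subunit of the chromatin assembly factor lay at 3.39 and 3.31 in FF and 3.57 and 3.64 in KO, a difference of 0.25 with a 95% interval from -0.03 to 0.54. Fen1, the nuclease that trims Okazaki fragments, lay under the guide on all arrays, at 2.14 and 2.53 in FF and 1.997 and 2.14 in KO. Lig1, the ligase that joins them, had a difference of -0.10. Uhrf1, which carries DNA methylation through replication, had one of -0.04, and Ung, the uracil glycosylase, of -0.07.

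None of the genes that drive entry into S phase passed the test. Ccne1 and Ccne2, which encode the E cyclins, had differences of 0.09 and -0.04. E2f1 and E2f2, activators of the replication genes, had differences of 0.10 and 0.05. E2f1 lay at 3.07 and 3.11 in FF and at 3.26 and 3.12 in KO, so its groups did not overlap, by a small margin on KO replicate 2. The lowest limma adjusted p of these 4 genes was 0.764, and each interval lay within 0.5 log2 units of 0. The authors' deposited table gave signed fold changes of -1.54 for E2f2, 1.26 for Ccne1, 1.22 for E2f1 and 1.10 for Ccne2.

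**Figure D2:**
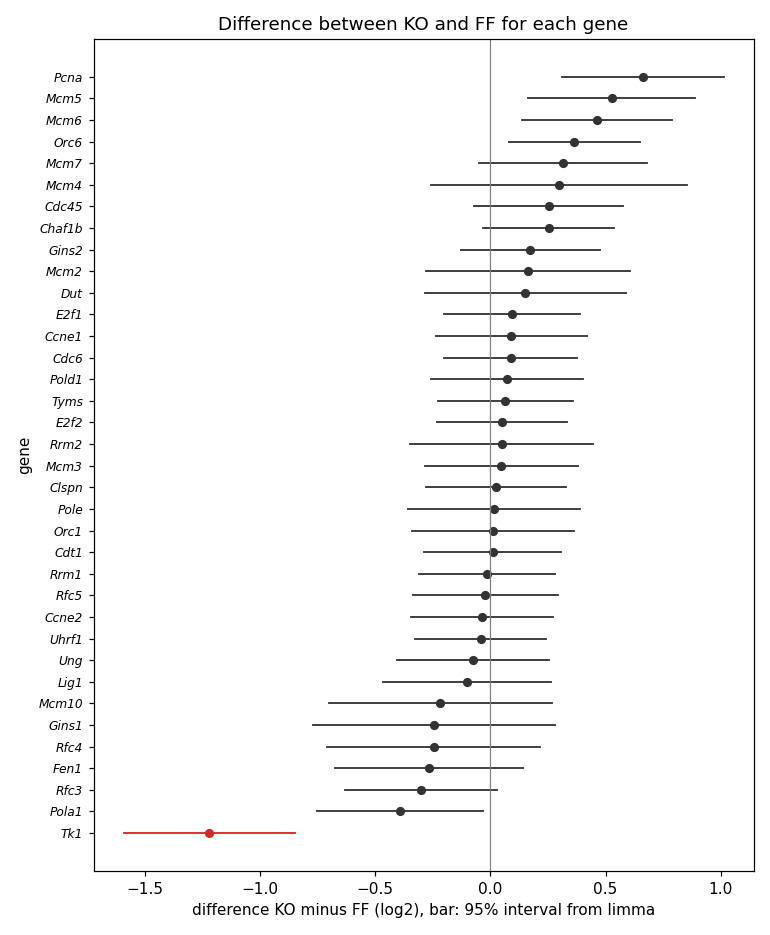
Difference KO minus FF (log2) of each of the 36 genes with its 95% interval from limma, ordered by size. Tk1, in red, is the gene with a limma adjusted p under 0.05. Its interval runs from -1.59 to -0.85, while 23 of the 36 points lie above 0 and 13 below.

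Counted by arrays, both KO arrays lay above both FF arrays for 10 of the 36 genes and below for 3. Together that is 36.1% of them, against 46.6% of all genes tested. The 10 were Pcna, Mcm5, Mcm6, Mcm7, Orc6, Cdc45, Chaf1b, Gins2, Cdc6 and E2f1, which is 27.8% against 21.6% of all genes. The 3 were Tk1, Pola1 and Rfc3, which is 8.33% against 25% of all genes. These shares were not tested, since the genes were chosen with earlier results known.

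**Figure D3:**
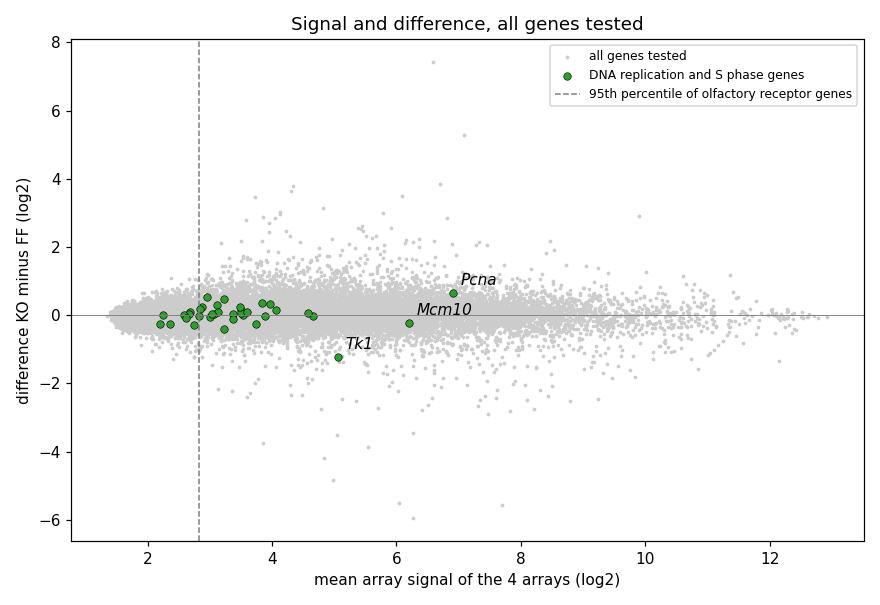
Mean signal of the 4 arrays (log2, horizontal) against the difference KO minus FF (log2, vertical) for the 29432 genes tested (grey) and the 36 replication genes (green). The dashed line marks the background guide of 2.82. Apart from Pcna, Mcm10 and Tk1 the green points lie below a mean of 5 and within 0.6 of 0.

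Other genes of the replication machinery were also without a call. Of 60 further genes listed for this process 59 were measured, and 0 rose and 0 fell by limma. At an unadjusted limma p under 0.05 there were 13, against 17% of all genes. Of these, 10 were higher (9.38% of all genes) and 3 lower (7.6% of all genes). For 24 of the 59 genes both KO arrays lay above both FF arrays (21.6% of all genes). For 9 both lay below (25% of all genes). These shares were not tested. The median difference of the 59 genes was 0.08, against -0.02 for all genes. Those with the largest differences were Rnaseh2c and Mtbp. Rnaseh2c, a subunit of the nuclease that removes ribonucleotides from DNA, lay at 5.02 and 5.02 in FF and 4.34 and 4.39 in KO. The difference, -0.66 ± 0.11 (SE), had a limma adjusted p of 0.0596. Mtbp, a partner of the origin firing factor Ticrr, lay at 2.94 and 2.95 in FF and 3.49 and 3.60 in KO. Its difference of 0.60 ± 0.12 had a limma adjusted p of 0.0740.

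Among upstream regulators, the CDK inhibitor gene Cdkn1a and the cyclin D1 gene Ccnd1 rose. Cdkn1a lay at 4.18 and 4.70 in FF and at 9.81 and 9.67 in KO. Ccnd1 lay at 4.997 and 5.79 in FF and at 8.58 and 7.90 in KO. These were the 2 genes that rose among 18 cyclins, kinases and inhibitors, and 0 fell (limma adjusted p = 0.00135 and 0.0237). Over all genes 0.996% rose and 0.778% fell. An unadjusted limma p under 0.05 was found for 6 of the 18, against 17% of all genes. Of these, 5 were higher (9.38% of all genes) and 1 lower (7.6% of all genes). Among 16 genes of the E2F and RB families and the MuvB core 0 were called, and the median difference was -0.01. At an unadjusted limma p under 0.05 there were 4, against 17% of all genes. The largest differences there were in Rbl1, which encodes the pocket protein p107, and E2f8, a repressor of E2F targets. Rbl1 lay at 2.78 and 3.22 in FF and 4.06 and 3.74 in KO, a difference of 0.90 ± 0.19 (SE, limma adjusted p = 0.0940). E2f8 lay at 3.89 and 4.57 in FF and 4.39 and 5.65 in KO, so its groups overlapped.

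**Figure D4:**
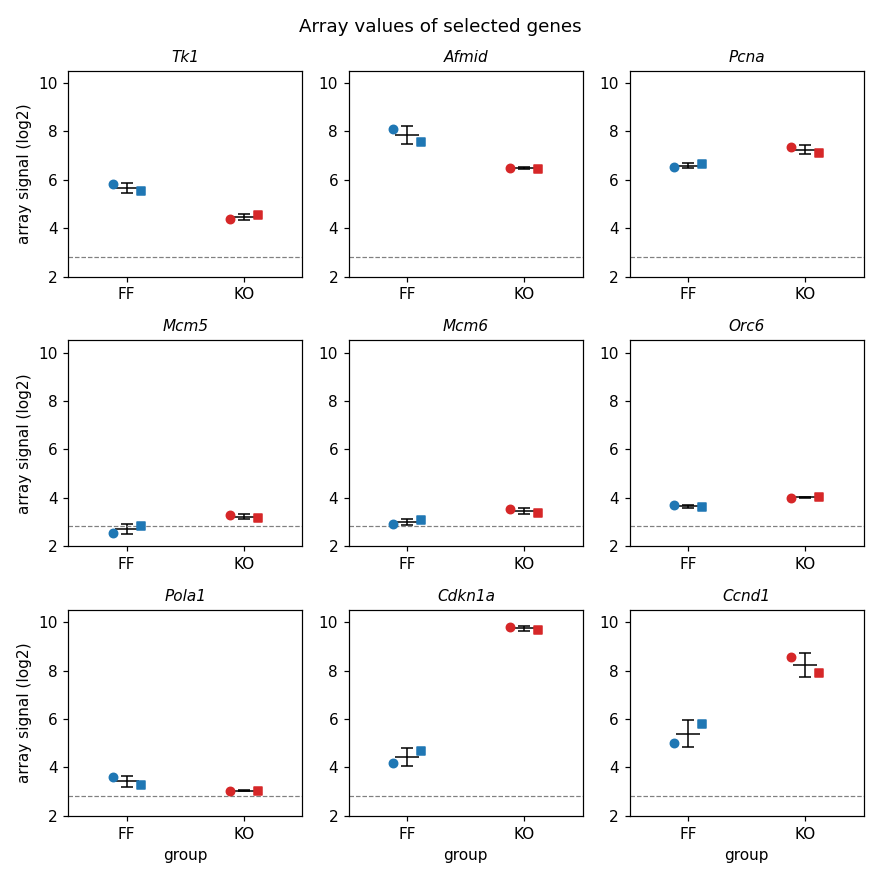
Array signal (log2) in FF (blue) and KO (red) of Tk1, its neighbour Afmid, the other replication genes with an unadjusted limma p under 0.05, and Cdkn1a and Ccnd1. Circles are replicate 1 and squares replicate 2. Horizontal marks and bars are the mean and SD of 2 arrays, and the dashed line is the guide of 2.82. Cdkn1a and Ccnd1 separate by several units, Tk1 and Afmid by more than 1, and the other 5 genes by less than 1.

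Genes of mitosis were also without a call. Of 18 such genes 0 rose and 0 fell by limma, and the median difference was 0.28. At an unadjusted limma p under 0.05 there were 6, all higher in KO, against 9.38% of all genes. The mean signal of 9 of the 18 lay under the background guide. For 12 of the 18 both KO arrays lay above both FF arrays, against 21.6% of all genes. Aurka, a kinase of the spindle poles, lay at 3.02 and 3.05 in FF and 3.65 and 3.71 in KO (difference 0.65 ± 0.11, limma adjusted p = 0.0630). Aurkb, the kinase of the chromosomal passenger complex, lay at 2.84 and 2.27 in FF and 2.91 and 3.76 in KO. Whether mitosis and replication genes differ from each other was not tested.

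Markers of several other liver cells were higher in KO by mean. All 8 Kupffer cell, all 8 stellate, all 8 ductular and all 8 endothelial markers had positive differences, of which 0, 2, 1 and 0 rose by limma. The called ones were the stellate markers Col1a1 (difference 1.51) and Reln (0.91) and the ductular marker Prom1 (1.69). The summed linear signal of the Kupffer cell list was 713 and 762 in FF and 1570 and 1017 in KO, that of the stellate list 1532 and 1473 against 2963 and 2367, and that of the ductular list 153 and 240 against 569 and 423. The endothelial sum was 1134 and 1035 against 1357 and 1293. Such sums weigh the brightest markers most, Dcn in the stellate list (mean log2 signal 10.2) and Spp1 in the ductular list (7.73). The sum of 9 hepatocyte markers was 32983 and 33605 in FF and 28044 and 28522 in KO, with 0 called. All 9 differences were negative, and for 8 of the 9 both KO arrays lay below both FF arrays, against 25% of all genes. At an unadjusted limma p under 0.05 there were 4, all lower, against 7.6% of all genes. Of the 9, Tat and Asgr1 had the largest differences, -0.81 and -0.61. Alb, the defining hepatocyte gene, lay between 12.74 and 12.86 on all 4 arrays. Its mean signal of 12.78 was near the highest of all genes tested, 12.93, where a change could be compressed. The sum of 14 markers of lymphocytes and myeloid cells was 124 and 126 in FF and 181 and 126 in KO, with 0 called. Of these 14 markers 5 had positive and 9 negative differences, with a median of -0.04. The leukocyte gene Ptprc lay at 4.49 and 4.67 in FF and at 5.83 and 5.11 in KO, a difference of 0.89 (limma adjusted p = 0.150), and the monocyte gene Ly6c2 had one of 0.54. The T cell gene Cd3e lay between 2.48 and 2.87. The sum of 7 erythroid markers was 196 and 204 against 223 and 235. Mean signals lay under the background guide for 7 of the 14 lymphocyte and myeloid markers, 4 of the 7 erythroid and 3 of the 8 ductular markers. The summed signal of the 36 replication genes, to which Pcna added most, was 549 and 569 in FF and 602 and 579 in KO. The part of other cell types in the values of the replication genes was not tested.

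The promoters of the genes are of interest because E2F factors are known to act there. RefSeq promoter windows of GRCm38.p6, from 250 bases before to 50 after an annotated start, were found for 31 of the 36 genes. Ccne2, Gins1, Gins2, Mcm4 and Pole had none and are only named. The windows were searched on both strands for 4 forms of the E2F motif, TTTCCCGC, TTTCGCGC, TTTGCCGC and TTTGGCGC. At least 1 of them was in a window of 14 of the 31 genes, or 45.2%, against 2.60% of 27025 genes with a window. The CCAAT box (CCAAT) was in 54.8% against 41.1%, and the GC box (GGGCGG) in 77.4% against 38.2%. In the windows of these genes 2 pairs of E2F matches overlapped each other, 1 E2F match overlapped a CCAAT box and 0 a GC box. A match describes letters and is not a bound site.

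**Figure D5:**
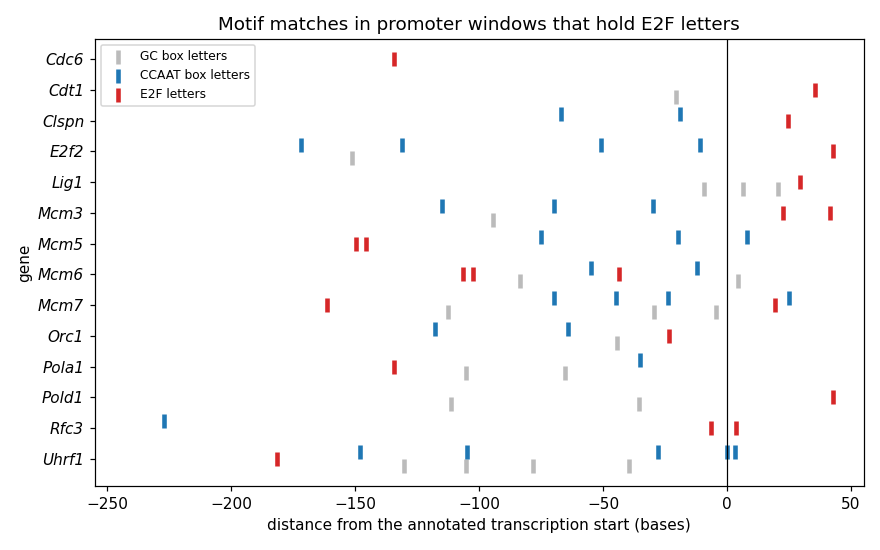
Positions of E2F (red), CCAAT box (blue) and GC box (grey) letters in the promoter windows of the 14 genes with an E2F match, in bases from the annotated start at 0; where a gene has several windows their matches share a line. E2F matches lie from -185 to 46, on both sides of the start.

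The windows of the 6 genes with an unadjusted limma p under 0.05 are shown to set the gene that fell beside those next in size of difference. They are Tk1 (chr11:117825965-117826264, minus strand), Pcna (chr2:132253131-132253430, minus strand), Mcm5 (chr8:75109259-75109558, plus strand), Mcm6 (chr1:128359656-128359955, minus strand), Orc6 (chr8:85299382-85299681, plus strand) and Pola1 (chrX:93632106-93632405, minus strand), written in the direction of transcription with E2F matches in capitals.
Tk1: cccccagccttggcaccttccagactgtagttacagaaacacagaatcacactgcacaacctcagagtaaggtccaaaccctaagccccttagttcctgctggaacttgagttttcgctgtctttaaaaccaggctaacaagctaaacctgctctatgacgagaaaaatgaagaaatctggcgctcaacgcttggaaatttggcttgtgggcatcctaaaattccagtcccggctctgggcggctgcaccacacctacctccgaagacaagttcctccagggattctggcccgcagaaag
Pcna: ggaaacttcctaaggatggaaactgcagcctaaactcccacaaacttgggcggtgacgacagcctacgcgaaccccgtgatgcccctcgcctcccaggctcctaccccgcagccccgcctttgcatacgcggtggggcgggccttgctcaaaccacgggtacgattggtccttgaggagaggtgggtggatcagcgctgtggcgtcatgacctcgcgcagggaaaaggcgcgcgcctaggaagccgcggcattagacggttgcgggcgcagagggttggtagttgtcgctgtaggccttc
Mcm5: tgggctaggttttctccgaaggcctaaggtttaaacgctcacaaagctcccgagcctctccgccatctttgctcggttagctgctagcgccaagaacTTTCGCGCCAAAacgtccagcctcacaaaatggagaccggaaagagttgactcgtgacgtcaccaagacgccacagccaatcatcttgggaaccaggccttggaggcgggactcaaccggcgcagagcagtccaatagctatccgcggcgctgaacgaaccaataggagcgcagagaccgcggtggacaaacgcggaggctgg
Mcm6: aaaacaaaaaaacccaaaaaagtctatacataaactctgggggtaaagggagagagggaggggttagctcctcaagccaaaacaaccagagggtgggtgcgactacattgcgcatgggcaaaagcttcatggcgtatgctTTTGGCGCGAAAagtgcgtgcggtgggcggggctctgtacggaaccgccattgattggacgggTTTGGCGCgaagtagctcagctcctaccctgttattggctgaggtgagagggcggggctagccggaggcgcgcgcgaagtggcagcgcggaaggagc
Orc6: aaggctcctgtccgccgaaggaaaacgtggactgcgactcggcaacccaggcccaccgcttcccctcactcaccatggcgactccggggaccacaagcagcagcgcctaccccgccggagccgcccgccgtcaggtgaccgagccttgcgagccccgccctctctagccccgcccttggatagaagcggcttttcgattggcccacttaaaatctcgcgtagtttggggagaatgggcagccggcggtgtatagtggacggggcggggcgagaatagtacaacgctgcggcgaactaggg
Pola1: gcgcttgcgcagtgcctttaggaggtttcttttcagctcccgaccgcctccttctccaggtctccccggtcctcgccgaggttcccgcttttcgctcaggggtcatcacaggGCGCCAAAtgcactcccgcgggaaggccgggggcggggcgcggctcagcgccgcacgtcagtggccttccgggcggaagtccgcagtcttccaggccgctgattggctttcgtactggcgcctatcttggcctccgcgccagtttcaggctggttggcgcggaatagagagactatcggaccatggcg

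The window of Tk1 held 0 E2F matches, 0 CCAAT boxes and 1 GC box, and those of Pcna and Orc6 also held 0 E2F matches. Mcm5 held 2 overlapping E2F matches, from -153 to -142, and 3 CCAAT boxes. Mcm6 held 3 E2F matches, an overlapping pair from -110 to -99 and a single one from -47 to -40. Pola1 held 1, from -138 to -131, and its difference was negative. The absence of these letters says nothing of other forms of the motif or of sequence outside the window. The 14 genes with an E2F match had differences from -0.39 to 0.53 with a median of 0.04, and the 17 without from -1.22 to 0.66 with a median of 0.07. The only called gene, Tk1, was among the 17 without.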

How the data were processed

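Liver RNA of 2 FF and 2 KO mice was measured on arrays. Values are the authors' deposited log2 signals. Per the submitters' processing notes they come from RMA (Affymetrix Expression Console, version not given). RMA quantile-normalizes the arrays, so a change in total RNA cannot be seen. The authors' deposited second table gives, per the file headers, log2 averages and a signed fold change, used here as a score for comparison only, and the gene symbols (mm10 annotation). Its averages do not equal the group means of the deposited log2 signals, and how they were made is not stated. Of 41345 probe sets, 29945 had 1 symbol. They gave 29432 genes, 1 probe set each (highest mean of the 4 arrays).

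KO and FF were compared with limma 3.58.1 in R 4.3.3 (lmFit, eBayes, no block, no filter), with 5.79 total degrees of freedom and Benjamini-Hochberg adjustment over all genes. The fit was tested on simulated data. Errors after ± are limma standard errors unless named SD. Gene coordinates are RefSeq's, all 36 genes being found. All members are described. Array values are given for those with an unadjusted p under 0.05, the 4 highest and 4 lowest in mean signal, and any whose KO arrays lie on opposite sides of the FF mean and over 0.5 apart; others were added after their values were seen. Outside the members, the targeted gene and, per replication or cell cycle list, up to 3 called genes a direction or, with no call, the 2 largest differences are named. The markers and neighbours named were chosen after their values were seen. The members and lists were chosen with earlier results of these data known. Same-numbered arrays did not deviate together (r = -0.0064 across 29432 genes, which are not independent). The labels give no batch or scan date.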

Additional observations from a re-analysis of the deposited data

How the results depend on the processing

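The fall of Tk1 kept its direction under every alternative run, and its call depended on the setting. It was called with variance trends, robust or not, median centring, cyclic loess, averaged probe sets, the dimmer 50% of genes left out, and at 0.1. It was not called with the replicate number as a block (limma adjusted p = 0.119, 0 members lower), with all probe sets tested (0.0957, 0 members lower) or with any single array left out (0 members lower each time), where 1 array stands for a group and is assumed to vary like the others. The numbers of genes called over all genes were 522 as reported, 30 with the replicate block, 975 with robust trends, 850 without the dimmer 50%, 42 of all probe sets, 1235 at an adjusted p under 0.1, and 0 to 0 without any single array. The replicate block changed no other call among the 36 genes. At 0.1, 1 member (Pcna) was called higher. Of the other replication genes 1 was called with cyclic loess, 1 without the dimmer 50% and 3 at 0.1. The median difference of the 36 genes was 0.125 in the authors' deposited table and 0.02 to 0.07 without any single array. With the dimmer genes left out, 25 of the 36 were tested. The cause of these shifts was not tested.

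Small differences changed sign. With median centring those of Rfc5 and Rrm1 became 0.00022 and 0.0057. Without any single array the lowest and highest values of the genes that crossed 0 were -0.0225 to 0.20 (Ccne1), -0.11 to 0.0398 (Ccne2), -0.0517 to 0.0713 (Cdt1), -0.0645 to 0.11 (Clspn), -0.082 to 0.38 (Dut), -0.55 to 0.0608 (Gins1), -0.26 to 0.0587 (Lig1), -0.0714 to 0.40 (Mcm2), -0.0801 to 0.17 (Mcm3), -0.00834 to 0.60 (Mcm4), -0.10 to 0.13 (Orc1), -0.039 to 0.18 (Pold1), -0.15 to 0.18 (Pole), -0.50 to 0.00683 (Rfc4), -0.13 to 0.0806 (Rfc5), -0.0902 to 0.0564 (Rrm1), -0.13 to 0.23 (Rrm2), -0.00253 to 0.13 (Tyms), -0.0868 to 0.00074 (Uhrf1), -0.17 to 0.0236 (Ung). Of the 36 genes 9, none of them called (Ccne2, E2f2, Fen1, Mcm7, Pold1, Pole, Rfc4, Tyms and Uhrf1), had the opposite sign in the authors' deposited table.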
